A study of Mus musculus with 6 samples.

Results

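The 35 genes described here encode laminin chains, the proteins that are built into basement membranes beside them, and the cell surface receptors for these proteins. They were listed by name as a functional group among the 57180 genes of the deposited tables, by a rule that uses no measured value, although earlier results of these data were known. They are 10 laminin chains, 2 nidogens, the proteoglycans perlecan (Hspg2) and agrin (Agrn), collagens XVIII and XV (Col18a1, Col15a1), dystroglycan (Dag1) and 18 integrin subunits. RNA-seq was carried out on mouse corneal endothelial cells, the single cell layer on the inner face of the cornea, with 3 libraries from Col8a2Q455K/Q455K mice (Col8a2 group) and 3 from Col8a2Q455K/Q455K/Tcf4+/- mice (Tcf4+/- group). Both groups are homozygous for a mutant chain of collagen VIII, a main collagen of Descemet membrane, which is used as a model of Fuchs endothelial corneal dystrophy. The second group is labelled as a heterozygous knockout of Tcf4, a basic helix-loop-helix transcription factor, as well. The labels give no age, sex or pooling of corneas and no cell type for the knockout, and libraries of mice with intact Col8a2 were not analysed here.

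A laminin is a trimer of an alpha, a beta and a gamma chain, and it forms a sheet that nidogens and perlecan tie to the collagen IV network of a basement membrane. Cells hold on to laminin through integrins, which are pairs of an alpha and a beta subunit, and through dystroglycan. Corneal endothelial cells rest on Descemet membrane, a thick basement membrane that they make themselves, and laminins with the alpha5 chain are known as a substrate on which they attach and grow.

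Each library held between 30344161 and 54265479 estimated counts. Tcf4 itself was not lower in the group labelled as its heterozygote. It stood at 313, 470 and 430 CPM (a count as a proportion of its library after TMM scaling) in the Col8a2 libraries and at 440, 599 and 373 CPM in those labelled Tcf4+/-, and the groups are named by their labels only. All 12 corneal endothelium markers had counts in every library, and their summed level was 17628 to 27176 CPM over the Col8a2 libraries and 13471 to 27504 CPM over the others, lowest in Tcf4+/- replicate 3. Markers of corneal epithelium summed to 4994 to 12449 CPM and those of stromal keratocytes to 5898 to 18674 CPM across the 6 libraries, so transcripts of neighbouring layers were present in both groups. Lens markers summed to 628, 33.8 and 287 CPM in the Col8a2 libraries and to 91.6, 4199 and 11174 CPM in Tcf4+/- replicates 1, 2 and 3. In such bulk samples fewer cells of a type and less RNA per cell cannot be told apart.

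Tcf4 binds the E-box letters CANNTG, and the promoters of 4 genes are shown as examples. They are those of the most abundant laminin alpha and beta chains, the laminin-binding integrin subunit of highest level, and Itga8, whose levels were separate between the groups. Each runs from 250 bases before to 50 bases after the annotated start, in RefSeq build GRCm38.p6, 5′ to 3′ on the gene's strand. Capitals mark each CANNTG match, which reads the same pattern on both strands. Lama5 lies at chr2:180225810-180226109 on the minus strand, Lamb2 at chr9:108479612-108479911 on the plus strand, Itga3 at chr11:95076665-95076964 on the minus strand and Itga8 at chr2:12301895-12302194 on the minus strand.
Lama5: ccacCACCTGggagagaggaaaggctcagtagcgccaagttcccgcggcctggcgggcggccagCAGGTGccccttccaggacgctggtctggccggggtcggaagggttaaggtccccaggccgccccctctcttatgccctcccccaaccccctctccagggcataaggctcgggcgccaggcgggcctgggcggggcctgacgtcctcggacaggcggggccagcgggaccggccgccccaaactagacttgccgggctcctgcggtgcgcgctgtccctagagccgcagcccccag
Lamb2: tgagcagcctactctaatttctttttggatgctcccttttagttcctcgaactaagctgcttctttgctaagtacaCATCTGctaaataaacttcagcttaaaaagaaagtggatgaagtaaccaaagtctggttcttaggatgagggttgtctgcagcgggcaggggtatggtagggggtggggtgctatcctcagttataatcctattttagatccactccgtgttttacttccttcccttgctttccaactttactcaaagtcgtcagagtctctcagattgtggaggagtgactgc
Itga3: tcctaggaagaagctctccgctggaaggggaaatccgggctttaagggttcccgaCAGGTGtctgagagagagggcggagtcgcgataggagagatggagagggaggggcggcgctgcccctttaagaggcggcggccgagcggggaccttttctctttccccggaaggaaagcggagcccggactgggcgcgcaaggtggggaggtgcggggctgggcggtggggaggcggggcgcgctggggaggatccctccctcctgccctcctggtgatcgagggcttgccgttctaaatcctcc
Itga8: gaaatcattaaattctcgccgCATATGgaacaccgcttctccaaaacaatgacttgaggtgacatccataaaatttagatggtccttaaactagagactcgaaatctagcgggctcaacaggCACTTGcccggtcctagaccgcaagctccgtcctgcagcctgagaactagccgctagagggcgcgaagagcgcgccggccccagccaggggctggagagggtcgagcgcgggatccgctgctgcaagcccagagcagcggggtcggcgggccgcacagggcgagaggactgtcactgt

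The Lama5 promoter held 2 matches, both of the form CACCTG or CAGGTG, each the reverse complement of the other. The match in the Itga3 promoter was CAGGTG as well. The single match of Lamb2 was CATCTG, and those of Itga8 were CATATG and CACTTG. A second annotated start of Itga3 held the match CACATG. Of the other genes with levels separate between the groups, Itga2 had 0 CANNTG matches in its promoter and Col15a1 had 1. Lama3 and Itgb4 had no promoter entry. Of the 35 genes, 25 had an entry, with 31 promoters in all, of which 71% held CANNTG against 72.3% of all 32851 promoters of this length. The narrower form CACCTG or CAGGTG was in 8 of these 31 promoters, or 25.8%, against 20.2% of all. These matches are letters in a window and do not show binding.

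Lama5, Lamb2 and Lamc1 were the most abundant chains of their classes in every library. Together they are the chains of laminin-521. Lama5, the alpha chain found in most adult epithelial basement membranes, stood at 51.7, 95.1 and 108 CPM in the Col8a2 libraries and at 57.4, 119 and 30.3 CPM in the Tcf4+/- libraries. Lamb2, the beta chain of mature basement membranes, stood at 319, 420 and 312 CPM and at 267, 463 and 196 CPM. Lamc1, the gamma chain that most laminins share, stood at 45.6, 74.3 and 61.5 CPM and at 53.8, 77.7 and 31.9 CPM. For each of these 3 chains the groups overlapped, with the highest value in Tcf4+/- replicate 2 and the lowest in Tcf4+/- replicate 3.

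The level per length of transcript depends on which transcripts the reads were assigned to. The deposited length of Lama5 was 1269 to 1626 bases, while its longest coding transcript has 11388 bases, so its TPM (abundance per effective length, scaled to the same total in every library) rests largely on short annotated transcripts. For Lamb2 the deposited length was 5002 to 5576 bases against a coding transcript of 5629 bases. Comparisons between genes are therefore given both in TPM and as CPM per kilobase of the longest coding transcript. In TPM, Lama5 averaged 67.5 and Lamb2 69.4 over the 6 libraries, and Lamb2 was above Lama5 in 4 of 6 libraries. Per kilobase of coding transcript, Lama5 averaged 6.76 and Lamb2 58.5 CPM, and Lamb2 was above Lama5 in 6 of 6, by 5.83 to 13.1 times. Lamc1 averaged 7.54 CPM per kilobase, 0.85 to 1.57 times Lama5, while in TPM it was below Lama5 in 6 of 6. The order of Lamb2 over Lamc1 held on both scales, by 2.93 to 5.05 times in TPM and 6.72 to 9.48 times per coding transcript.

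**Figure D1:**
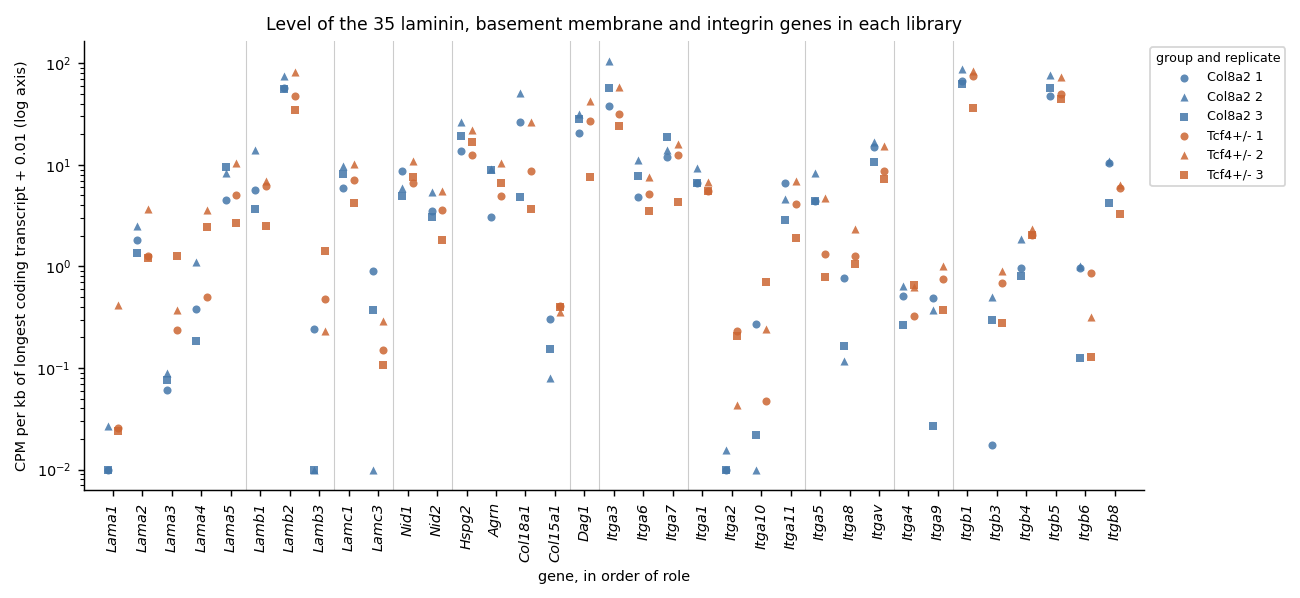
Level of each of the 35 genes in each library, as CPM per kilobase of the longest coding transcript plus 0.01 on a log axis, with blue for the Col8a2 group, orange for the Tcf4+/- group and the marker shape for the replicate. Lamb2, Itgb1, Itgb5 and Itga3 lie at the top, with means of 58.5, 68.7, 58.1 and 52.4, and Lama1 and Itga2 at the bottom, with means of 0.0749 and 0.0757.

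Use of the beta and gamma chains was led by Lamb2 and Lamc1 in every library. Lamb2 took 84.8% to 94.2% of the TPM of the 3 beta chains, and 84.1% to 93.7% of the counts per longest coding transcript. Lamb1, the beta chain of early and vascular basement membranes, took 5.84% to 15.2%, highest in Col8a2 replicate 2, and stood at 32.5, 81.6 and 21.4 CPM in the Col8a2 libraries and at 35.6, 40.5 and 14.5 CPM in the Tcf4+/- libraries. Its groups overlapped. Lamc1 took 94.2% to 100% of the TPM of the 2 gamma chains, and 87% to 100% of the counts per longest coding transcript. Both were lowest in Col8a2 replicate 1. Lamc3, a gamma chain of few tissues, reached at most 5.27 CPM, in Col8a2 replicate 1, and had 0 counts in Col8a2 replicate 2.

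Use of the alpha chains varied more. Lama5 took 87.2%, 87.5% and 96.3% of the TPM of the 5 alpha chains in the Col8a2 libraries and 89.3%, 80.2% and 50.8% in the Tcf4+/- libraries. Per longest coding transcript the shares of Lama5 were 67%, 69.6% and 85.6%, then 71.7%, 56.6% and 35.2%. On both scales Tcf4+/- replicate 1 lay within the Col8a2 range and replicates 2 and 3 below it. The mean share in TPM was 90.3% ± 5.16 for Col8a2 and 73.4% ± 20.1 for Tcf4+/- (SD, n = 3 each, two-sided exact permutation p = 0.3, adjusted to 0.982 over the 12 shares tested). With 3 against 3 this test cannot go below 0.1, so it could not have passed a threshold of 0.05. None of these 12, the shares with a mean of at least 5%, had groups that did not overlap.

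Lama4, the alpha chain of blood vessels, muscle and nerve, took 12.1% and 40% of the TPM of the alpha chains in Tcf4+/- replicates 2 and 3, against 1.94% to 6.78% in the other 4 libraries. Per longest coding transcript its shares in replicates 2 and 3 were 19.3% and 31.9%, and Lama2 took 19.9% and 15.9% there. Lama4 stood at 2.25, 6.56 and 1.05 CPM in the Col8a2 libraries and at 2.94, 21.5 and 14.6 CPM in the Tcf4+/- libraries. The high values were those of Tcf4+/- replicates 2 and 3, and replicate 1 lay inside the Col8a2 range. The fitted log2 fold change of Lama4 was 1.98, its standard error 0.90 (edgeR unadjusted p = 0.0525, adjusted p = 0.99988). Without Tcf4+/- replicates 2 and 3 it was -0.17. These are also the 2 libraries of high lens markers. In TPM Lama4 stood at 15.7 and 17.6 there. In these 2 libraries the gap between gene length and effective length was 154.8 and 150.1 bases, against 210.9 to 240.7 bases in the other 4. The summed level of 12 vascular and mural cell markers was 219 to 430 CPM over the Col8a2 libraries and 295 to 514 CPM over the others, highest in replicate 2. Of these 12, 1 lay wholly higher in the Tcf4+/- group, Cdh5, and of 8 skeletal muscle markers 2 did, Ckm and Mylpf, beside 4.54% of all genes tested. In both lists 0 lay wholly lower. The part of lens, vessel or muscle tissue, or of the length gap, in the level of Lama4 was not tested. The deposited length of Lama4 was 835 to 1601 bases against a coding transcript of 6046 bases.

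**Figure D2:**
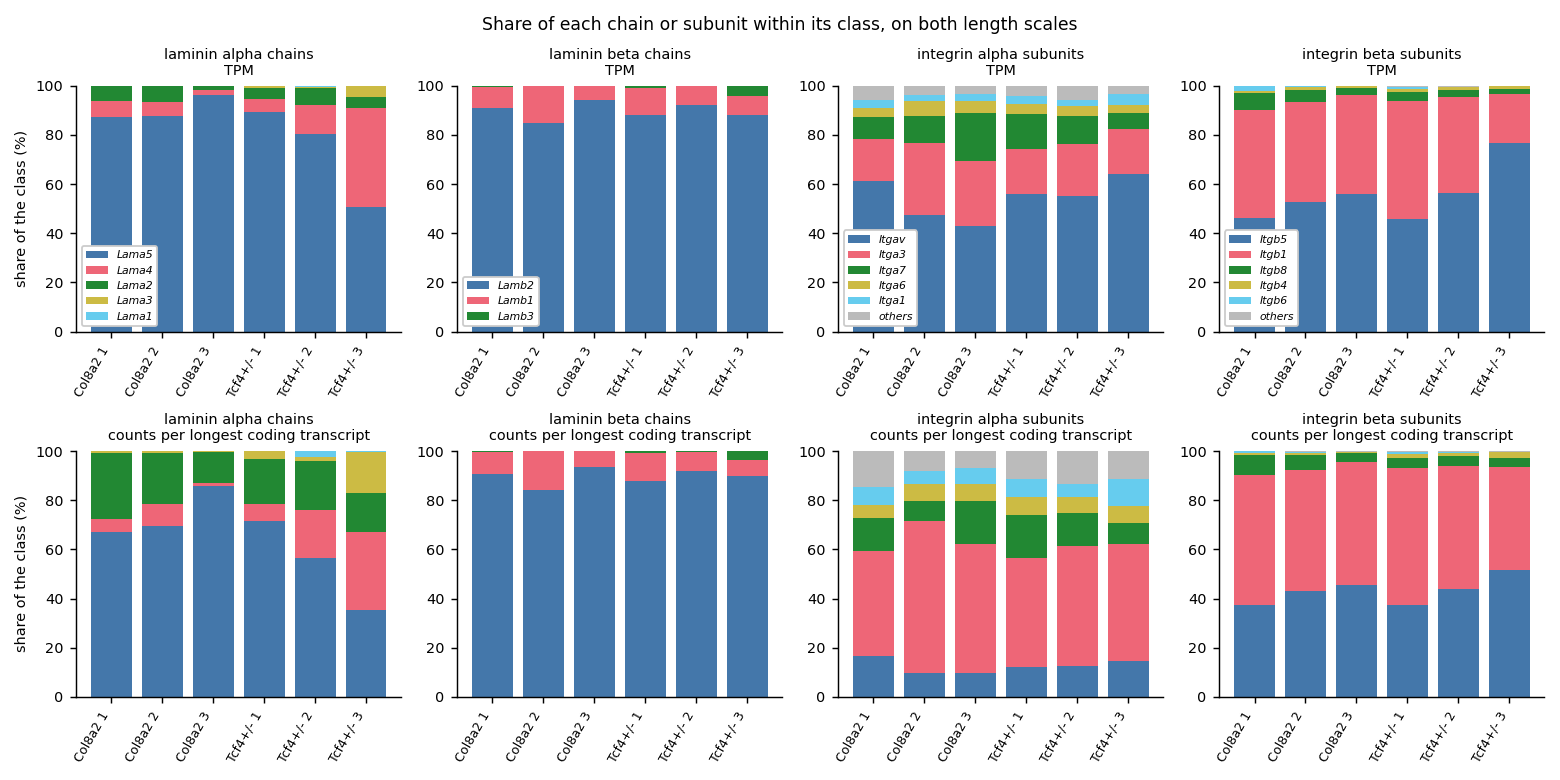
Share in percent of each chain or subunit within its class, 1 bar per library, in TPM (top row) and in counts per longest coding transcript (bottom row). Lamb2 fills 84.1% to 94.2% of the beta chains on both scales, the Lama5 share is lowest in Tcf4+/- replicate 3, and the leading integrin alpha subunit is Itgav in TPM and Itga3 per coding transcript.

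The remaining alpha chains were low, and 1 of them was separate between the groups. Lama2, the alpha chain of muscle and peripheral nerve, stood at 17.5, 23.7 and 13.1 CPM in the Col8a2 libraries and at 12.2, 35.4 and 11.6 CPM in the Tcf4+/- libraries, with groups that overlapped in full. Lama3, the alpha chain of laminin-332 in epithelial anchoring, stood at 0.531, 0.848 and 0.692 CPM and at 2.39, 3.82 and 13.4 CPM. Every Tcf4+/- library lay above every Col8a2 library, and replicate 3 was far above the other 2. The fitted log2 fold change of Lama3 was 3.23 (standard error 1.01, 95% interval 0.98 to 5.49). It did not pass in edgeR (unadjusted p = 0.00982, adjusted p = 0.99988). DESeq2 gave an adjusted p of 0.0171 for Lama3, the 1 of 34 genes of this set it called, where it called 0.599% of all genes with an adjusted p. Pooled over 3 libraries each, Lama3 had 102 counts for Col8a2 and 719 for Tcf4+/-, a ratio of 7.87 with a 95% interval of 6.39 to 9.78 for counting error only. Tcf4+/- replicate 3 held 396 of the 719, and without it the fitted log2 fold change of Lama3 was 2.16.

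Lamb3, the beta chain that joins Lama3 in laminin-332, stood at 1.13, 0 and 0 CPM in the Col8a2 libraries and at 2.29, 1.07 and 6.85 CPM in the Tcf4+/- libraries. Its groups overlapped, and the highest value was again in Tcf4+/- replicate 3. The 9 corneal epithelium markers summed to 12449, 5839 and 7484 CPM and to 11108, 4994 and 9698 CPM, and all 9 overlapped between groups. They did not move together: of the 6 libraries, Tcf4+/- replicate 2 had the lowest level of Krt12, at 501 CPM, and the highest of Krt15, at 1195 CPM. Lens markers were highest in Tcf4+/- replicate 3, as Lama3 was. The part of either tissue in the level of Lama3 was not tested. Lama1, the alpha chain of embryonic and lens basement membranes, had enough counts in too few libraries to pass the filter, and was not tested. It had 211 of the 222 counts of its group in Tcf4+/- replicate 2, where lens markers were at 4199 CPM, and stood there at 3.83 CPM against at most 0.162 CPM elsewhere. In Tcf4+/- replicate 3, where lens markers were at 11174 CPM, Lama1 had 4 counts.

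Nidogens and proteoglycans showed no separation among their abundant members. Nid1, a linker of laminin and collagen IV, stood at 52.6, 35.6 and 30 CPM in the Col8a2 libraries and at 40, 66.1 and 46.4 CPM in the Tcf4+/- libraries. Nid2 stood at 16.9, 26.4 and 14.9 CPM and at 17.5, 27 and 8.92 CPM, and Nid1 was above Nid2 in 6 of 6 libraries in TPM, by 1.03 to 2.18 times. Hspg2, whose product perlecan carries heparan sulfate in the basement membrane, stood at 196, 376 and 273 CPM and at 176, 310 and 239 CPM. Agrn, which binds laminin and dystroglycan, stood at 22.1, 65.5 and 64.3 CPM and at 35.5, 76.2 and 47.6 CPM. All 4 overlapped between groups.

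Col18a1 had the largest standard error, 0.82, of the 13 genes with a mean of at least 10 TPM. The gene, whose product is cleaved to give endostatin, stood at 148, 286 and 27.2 CPM in the Col8a2 libraries and at 49, 148 and 20.5 CPM in the Tcf4+/- libraries. The spread within the Col8a2 group, from 27.2 to 286 CPM, took in all Tcf4+/- values but the lowest, and the fitted log2 fold change of -1.09 had a 95% interval from -2.93 to 0.75. Col15a1, the related collagen of vessels and muscle, stood at 1.51, 0.363 and 0.751 CPM and at 2.08, 1.8 and 2.03 CPM. Its groups did not overlap, by a narrow margin at a low level, and it did not pass in edgeR (log2 fold change 1.17, standard error 1.23, adjusted p = 0.99988). In TPM the groups of Col15a1 overlapped, at 0.29 to 0.8 and 0.55 to 1.52.

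Dystroglycan, the laminin receptor of the dystrophin complex, stood at 116, 178 and 162 CPM in the Col8a2 libraries and at 153, 239 and 43.4 CPM in the Tcf4+/- libraries. Dag1 was thus highest and lowest within the Tcf4+/- group, and the fitted log2 fold change was -0.07 with a 95% interval from -1.22 to 1.08. Among 13 genes of the dystrophin complex, 7 were fitted higher and 6 lower, with a median log2 fold change of 0.02 where the median of all genes tested was 0.00, and 0 passed in edgeR. Sgce, epsilon-sarcoglycan, was the gene of that list with the highest TPM, at 80.4 ± 12.8 CPM for Col8a2 and 82.1 ± 62.3 CPM for Tcf4+/- (SD, n = 3 each). Dtna, alpha-dystrobrevin, had the smallest p, with a log2 fold change of 0.70. Of the 13 enzymes that build the laminin-binding sugar of dystroglycan, 6 were fitted higher and 7 lower, 0 passed, and the median log2 fold change was -0.04. Pomt2, an O-mannosyltransferase, stood at 22.1, 43.4 and 25.3 CPM and at 21.8, 22.8 and 8.04 CPM, and Rxylt1, a xylosyltransferase of the same pathway, at 31.6, 38.5 and 24 CPM and at 41.4, 31.3 and 50.6 CPM. B4gat1, which primes that sugar, had the highest TPM of the enzymes and a log2 fold change of -0.38.

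Among integrins that bind laminin, Itga3 was the most abundant and all 3 alpha subunits were fitted lower without passing. Itga3, which pairs with Itgb1 and prefers laminins with alpha3 or alpha5 chains, stood at 185, 511 and 276 CPM in the Col8a2 libraries and at 155, 285 and 116 CPM in the Tcf4+/- libraries. The highest Tcf4+/- value lay above 2 of the 3 Col8a2 values, and the fitted log2 fold change was -0.81 (standard error 0.46, 95% interval -1.83 to 0.22; edgeR adjusted p = 0.99988). Without Col8a2 replicate 2 and Tcf4+/- replicate 3, a choice made after seeing the data, the fitted value for Itga3 was -0.07. Itga7, the laminin receptor subunit of muscle, stood at 48.3, 56.6 and 75.1 CPM and at 50.2, 64.2 and 17.4 CPM. Itga6, which pairs with Itgb1 or, in hemidesmosomes, with Itgb4, stood at 21, 48.4 and 33.2 CPM and at 22, 32.8 and 15.3 CPM. Itga3 was above Itga6 in 6 of 6 libraries on both scales, by 4.43 to 5.42 times in TPM and 6.24 to 9.36 times per coding transcript.

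The leading integrin alpha subunit depended on the length scale. Itgav, the subunit shared by several receptors of vitronectin and fibronectin, stood at 106, 119 and 74.8 CPM in the Col8a2 libraries and at 61.9, 107 and 51.1 CPM in the Tcf4+/- libraries. Its deposited length was 605.4 to 937.7 bases against a coding transcript of 7054 bases. In TPM it took 42.9% to 63.9% of all alpha subunits and was above Itga3 in 6 of 6 libraries. Per longest coding transcript it took 9.81% to 16.8%, and Itga3, at 42.5% to 61.7%, was above it in 6 of 6 libraries. The file's lengths for Itga3, 3729 to 4621 bases, lie near its coding transcript of 4861 bases.

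Collagen-binding subunits were led by Itga1, the partner of Itgb1 in a collagen IV receptor. It stood at 72.8, 101 and 73.4 CPM in the Col8a2 libraries and at 60.1, 73.6 and 61.2 CPM in the Tcf4+/- libraries, so that only the highest Tcf4+/- value reached the Col8a2 range. Its log2 fold change of -0.34 had the smallest standard error of the set, 0.27, and a 95% interval from -0.94 to 0.25. Itga11, a receptor subunit for fibrillar collagens, stood at 9.45 to 34.4 CPM over the 6 libraries, and Itga10 at 0 to 3.51 CPM. Itga2, the other subunit for collagen and laminin of epithelia and platelets, stood at 0, 0.0404 and 0 CPM and at 1.57, 0.236 and 1.38 CPM. The groups of Itga2 did not overlap, on 2 pooled counts against 128, which differ by 71.5 times per depth (95% interval 19.4 to 596, counting error only). It did not pass in edgeR (unadjusted p = 0.0158, adjusted p = 0.99988) or in DESeq2 (adjusted p = 0.116). Its mean level in Tcf4+/- libraries was 1.06 CPM.

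Subunits that pair into receptors for the RGD letters of fibronectin and related ligands were fitted in both directions. Itga5, the fibronectin receptor subunit, stood at 19.4, 36.2 and 19.2 CPM in the Col8a2 libraries and at 5.76, 20.5 and 3.38 CPM in the Tcf4+/- libraries. Tcf4+/- replicates 1 and 3 lay below the Col8a2 range and replicate 2 inside it, and the log2 fold change was -1.33 with a standard error of 0.66 (edgeR adjusted p = 0.99988). Fn1, which encodes fibronectin, stood at 970, 1914 and 1957 CPM and at 1079, 1374 and 218 CPM, with a log2 fold change of -0.86. Itga8, the receptor subunit for nephronectin, stood at 4.42, 0.626 and 0.909 CPM and at 7.35, 13.5 and 6.08 CPM. All 3 Tcf4+/- values of Itga8 lay above all Col8a2 values, with a log2 fold change of 2.18 (standard error 0.92, 95% interval 0.12 to 4.23). It did not pass in edgeR (unadjusted p = 0.04, adjusted p = 0.99988), and without Tcf4+/- replicates 2 and 3 its fitted value was 1.88.

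The other integrin alpha genes of low level, Itga4 and Itga9, ranged from 2.52 to 6.38 CPM and from 0.119 to 6.96 CPM. Both are subunits found on leukocytes and on other cells, and both were fitted higher with overlap, with log2 fold changes of 0.19 and 1.28. The 12 leukocyte markers, which include the leukocyte integrins, summed to 225 to 801 CPM over the Col8a2 libraries and 287 to 543 CPM over the others.

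Among beta subunits, Itgb1 and Itgb5 were the most abundant in every library. Itgb1, the partner of most laminin and collagen receptors, stood at 255, 336 and 239 CPM in the Col8a2 libraries and at 285, 320 and 137 CPM in the Tcf4+/- libraries. Itgb5, which pairs with Itgav to bind vitronectin, stood at 156, 252 and 188 CPM and at 164, 239 and 145 CPM. Their fitted log2 fold changes were -0.16 (95% interval from -0.98 to 0.66) and -0.12 (95% interval from -0.83 to 0.60). In TPM, Itgb1 was above Itgb5 in 1 of 6 libraries, and per coding transcript in 5 of 6, with ratios from 0.814 to 1.49, so their order is not settled. The deposited length of Itgb5 was 1163 bases in Tcf4+/- replicate 3 and 2039 to 2383 bases in the other libraries, and in that library its TPM share among beta subunits was highest, at 76.7%.

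Itgb8, which pairs with Itgav and binds latent TGF-beta, was the third beta subunit by level. It stood at 88.2, 91.6 and 35 CPM in the Col8a2 libraries and at 49.1, 52.8 and 27.7 CPM in the Tcf4+/- libraries, with overlap and a log2 fold change of -0.73. Itgb4, the hemidesmosome subunit that pairs with Itga6, stood at 5.95, 11.5 and 4.9 CPM and at 12.5, 14.5 and 12.7 CPM. The groups of Itgb4 did not overlap, although Col8a2 replicate 2 came close, and the log2 fold change was 0.83 (standard error 0.52, 95% interval -0.34 to 1.99; edgeR adjusted p = 0.99988). In TPM the groups of Itgb4 overlapped. Itgb3, of the vitronectin receptor of platelets and vessels, and Itgb6, of epithelia, ranged from 0.0425 to 5.12 CPM and from 0.553 to 4.87 CPM, with overlap.

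**Figure D3:**
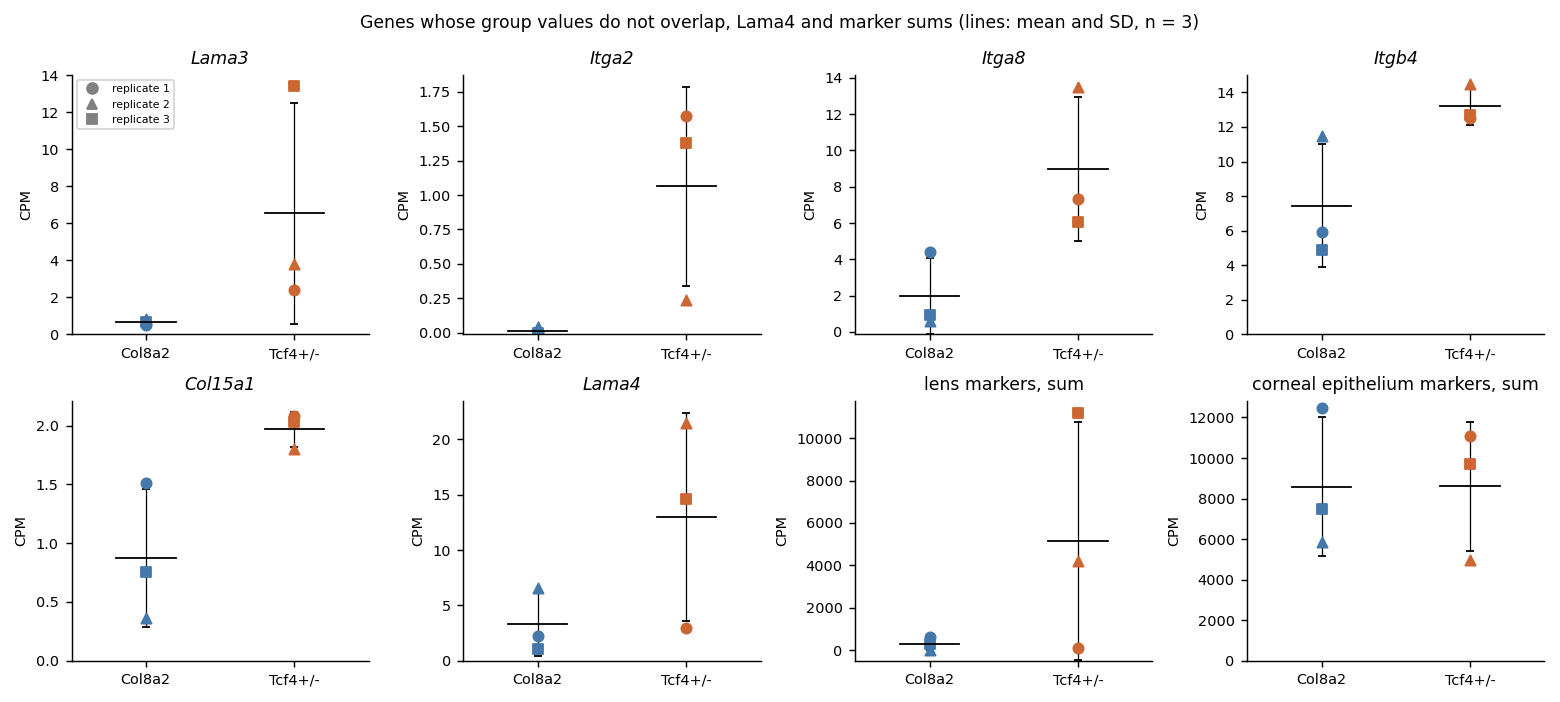
CPM in each library of the 5 genes whose groups did not overlap, of Lama4, and the summed CPM of lens and corneal epithelium markers, with blue for the Col8a2 group, orange for the Tcf4+/- group, the marker shape for the replicate and black lines for the mean and SD (n = 3). The 5 genes reach at most 14.5 CPM, lens markers are high in Tcf4+/- replicates 2 and 3, and epithelial markers overlap between groups.

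Across the set, the edgeR test called 0 genes. Of the 35 genes 34 were tested, all but Lama1, and 0 had an adjusted p under 0.05, where 0% of all 17639 genes tested did. An unadjusted p under 0.05 was found for 3, Lama3, Itga2 and Itga8, all fitted higher, where 1.42% of all genes tested had such a p with a higher value and 2.42% in either direction. DESeq2 called 1 of the 34 and limma voom 0. Groups that did not overlap were found for 5 of 34, all higher in the Tcf4+/- group, against 4.54% of all genes in that direction and 8.10% in either. No gene of the set lay wholly lower, against 3.57% of all genes. These 5 genes, Lama3, Itga2, Itga8, Itgb4 and Col15a1, are all of low level, and in TPM 3 of them had groups that did not overlap, which were Lama3, Itga2 and Itga8, where 9.08% of all genes tested did not overlap in TPM. Itga2 passed the filter on low counts only through the Tcf4+/- libraries, so it could only come out higher, and without it the counts were 2 and 4 in place of 3 and 5.

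The 13 genes with a mean of at least 10 TPM gave another picture. Of these 13, 12 were fitted lower, all but Agrn, with log2 fold changes from -1.09 to 0.07 and standard errors of 0.32 to 0.82, and 0 had groups that did not overlap. Their lowest value was in Tcf4+/- replicate 3 for 11 of the 13, and over all genes tested that library was the lowest for 22.7%. Their highest value was in Col8a2 replicate 2 for 7 and in Tcf4+/- replicate 2 for 5. Over all genes tested Col8a2 replicate 2 was the highest for 18.4%. Over the 34 genes 20 were fitted lower, where 49.9% of all genes tested were, and 14 higher, with a median log2 fold change of -0.12 beside 0.00 for all genes tested. Without Tcf4+/- replicate 3 the median was 0.12, without Col8a2 replicate 2 it was 0.08, and without both it was 0.30. The sign of the median thus turned without either of these 2 libraries.

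**Figure D4:**
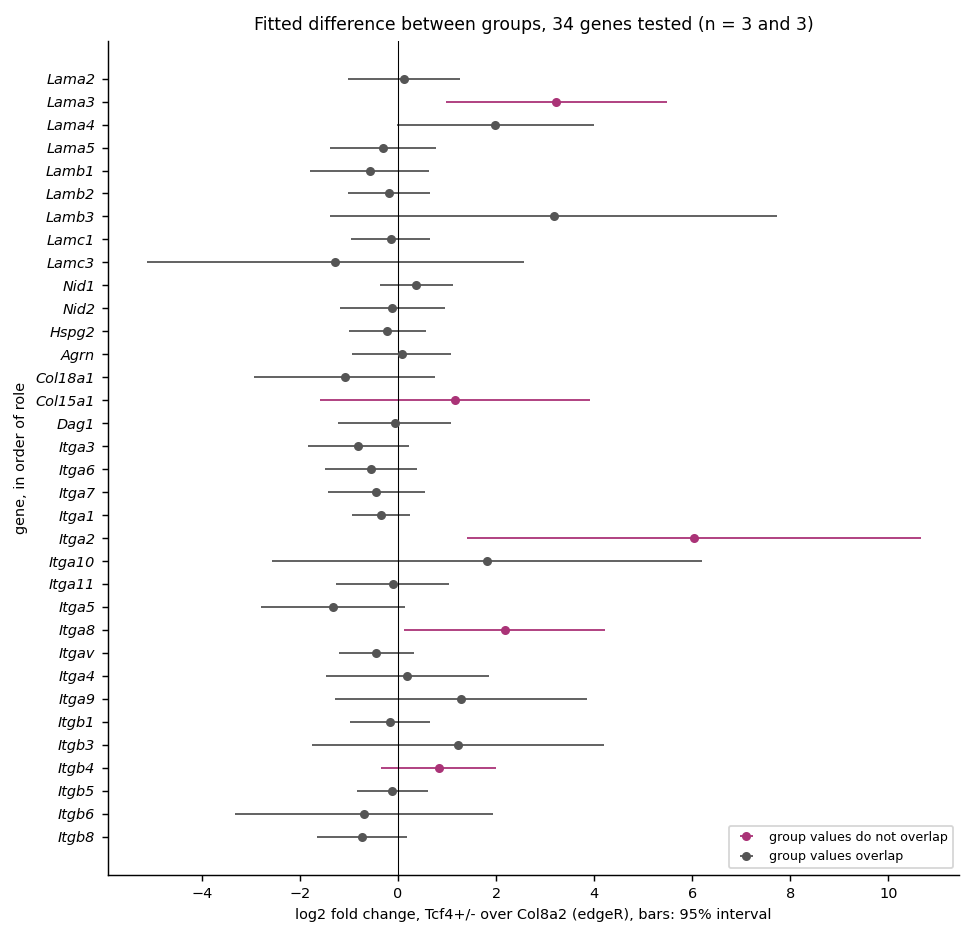
Fitted log2 fold change of Tcf4+/- over Col8a2 with its 95% interval for the 34 genes tested, ordered by role, with purple for genes whose group values do not overlap. The intervals of 3 genes, Lama3, Itga2 and Itga8, leave out 0, and 0 of 34 passed after adjustment over all genes.

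Other genes of the pathway showed no call either. Of 25 further basement membrane genes, 9 were fitted higher and 16 lower, 0 passed in edgeR, and the median log2 fold change was -0.17. Hmcn1, hemicentin, and Col17a1, a collagen of hemidesmosomes, had the smallest p, with log2 fold changes of 1.15 and 0.81, and Sparc, a collagen-binding glycoprotein, had the highest TPM, at 3196 ± 1260 CPM for Col8a2 and 2555 ± 1064 CPM for Tcf4+/- (SD, n = 3 each). The collagen IV genes Col4a1 and Col4a2, whose products laminin networks are tied to, stood at 337 to 1025 CPM and 143 to 771 CPM over the 6 libraries, each with its highest value in Col8a2 replicate 2 and its lowest in Tcf4+/- replicate 3. Of 14 integrin ligands outside the basement membrane, 4 were fitted higher and 10 lower, with a median of -0.16 and 0 calls, and Fbn1, fibrillin-1, and Fn1 were at -0.89 and -0.86. Of 13 proteases and heparan sulfate enzymes of the basement membrane, 3 were fitted higher and 10 lower, with a median of -0.14 and 0 calls. Bmp1, a procollagen and prolaminin protease, was at -0.54, and Mmp2, a gelatinase with the highest TPM of that list, at 0.04. Tll1, a relative of Bmp1, was at 3.31 with a standard error of 1.96. Its level was 0.276, 0 and 0.0988 CPM in the Col8a2 libraries and 0.127, 3.11 and 0.54 CPM in the Tcf4+/- libraries, with overlap. The 10 tetraspanins and hemidesmosome linkers split into 4 higher and 6 lower, with a median of -0.06 and 0 calls, with Cd44, Cd9 and Cd63 at 0.53, 0.29 and -0.19.

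Genes that carry the integrin signal into the cell were mostly fitted lower. Of 24 focal adhesion genes and integrin effectors, 18 were fitted lower and 6 higher, where 49.9% of all genes tested were fitted lower. Their median log2 fold change was -0.27 beside 0.00 for all genes tested, and 0 passed in edgeR. The groups did not overlap for 4 of the 24, all lower in the Tcf4+/- group, beside 3.57% of all genes tested in that direction. These 4 were Src, Ptk2, Ilk and Fermt1, of which only Src falls under the naming rule, so the other 3 were named after their values were seen. Src, a kinase that acts at focal adhesions, stood at 45.9, 65.1 and 65 CPM in the Col8a2 libraries and at 38.8, 38.6 and 41.4 CPM in the Tcf4+/- libraries. Its log2 fold change was -0.57 with a standard error of 0.27 (edgeR adjusted p = 0.99988). Ptk2, the focal adhesion kinase, stood at 54.4, 67.7 and 60.7 CPM and at 52.9, 51.1 and 22.5 CPM, and Ilk, the integrin-linked kinase scaffold, at 197, 174 and 184 CPM and at 171, 150 and 96.3 CPM. Fermt1, a kindlin of epithelia, stood at 5.32 to 7.01 CPM and at 3.47 to 4.66 CPM. Ptk2 and Ilk were lowest in Tcf4+/- replicate 3. For Ptk2, Ilk and Fermt1 the nearest values of the groups differed by less than the spread within the Tcf4+/- group. Bcar1, a substrate of Src, was at -0.47, and Cav1, caveolin-1, the gene of that list with the highest TPM, at 0.09.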

How the data were processed

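RNA was extracted from corneal endothelial cells and made into libraries with the SMART-Seq HT and Nextera XT kits, per the labels' protocols, which describe no strand information. The submitters' processing notes name build GRCm39 and, as tools, STAR, RSEM, DESeq2, FastQC 0.12.1 and fastp 0.23.2. For the first 3 tools no version is given in the sources used here. Expected counts, as deposited, are estimates per gene that are not scaled to depth. TPM, as deposited, is per effective length, which follows the transcripts that the estimate assigned reads to. Per the file headers, gene length and effective length are given in bases. The gap between both was 210.9, 233.8 and 234.1 bases in the Col8a2 libraries. It was 240.7, 154.8 and 150.1 bases in Tcf4+/- replicates 1, 2 and 3. Symbols came from GENCODE M21 of build GRCm38, matched by identifier for 51884 of 57180 genes, and the length of the longest coding transcript from the same release. Because the builds differ, coordinates are given for RefSeq promoters only.

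Counts were rounded, filtered with filterByExpr (17639 genes), scaled by TMM and tested with edgeR 4.0.16 (quasi-likelihood F-test, robust, group as the only term, Benjamini-Hochberg over all genes, threshold 0.05) in R 4.3.3. DESeq2 1.42.0 and limma 3.58.1 were alternatives. Genes of at least 10 TPM had a log2 fold change with a standard error of 0.35 at the median. Fitting was tested on simulated data with known changes. Intervals of count ratios cover counting error only. Shares within a class with a mean of at least 5% were compared by the two-sided exact permutation test. The counts of every pair of libraries differed by more than sampling noise. Nothing in the labels says that libraries came from separate animals, so the p-values speak only of differences beyond the spread of these 6 samples, which may be technical.

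The genes and lists were chosen with earlier results of these data known. Values of every library are given for the genes of highest TPM of each role, for every gene with an unadjusted p under 0.05 or groups that do not overlap, and for Dag1. Of each pathway list the 2 genes of smallest p and the 1 of highest TPM are named, some by their log2 fold change or mean alone, except 1 gene that is not reported here. Other genes of the set were named because all 35 are accounted for. Lists of markers for 9 sources of RNA were summed in CPM. Those not named above are Schwann cells and melanocytes, at 533 to 1456 CPM and 834 to 1869 CPM, skeletal muscle, at 13.4 to 167 CPM and 79.8 to 263 CPM, and erythroid cells and retina, at 2657 to 4244 CPM and 3467 to 11915 CPM, in the Col8a2 and Tcf4+/- groups.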

Additional observations from a re-analysis of the deposited data

How the results depend on the processing

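With 3 libraries a group, log2 fold changes had a median standard error of 0.54 over all genes tested. No gene of the set was called by edgeR under any of its alternatives. DESeq2 called 110 of all genes and 1 of the set, and leaving out 1 library gave 0 to 4 calls over all genes, 4 without Col8a2 replicate 3, and 0 in the set. The count of the set with an unadjusted p under 0.05 was 3 in the reported fit, where 427 of all 17639 genes had such a p. With no filter it was 6, where 1212 of 27594 genes did, and with DESeq2 5, where 1251 of 27594 did. With limma voom it was 5, where 515 of 17639 genes did. When 1 library was left out it was 2 to 6, where 437 to 839 of 18482 to 18887 genes did. The deviations from the group mean of libraries with the same replicate number had correlations of -0.024, 0.139 and -0.015. These do not settle whether replicate numbers pair the libraries. With the replicate block the count was 6, where 432 of 17639 genes had such a p, and 0 were called. Groups that do not overlap, 5 in CPM, were 3 in TPM, where 9.08% of all genes do not overlap, 6 to 12 when 1 library was left out, when 14.8% to 19.1% of all genes do not overlap, 15 without Tcf4+/- replicates 2 and 3, when 40.4% of all genes do not overlap, and 12 without Col8a2 replicate 2 and Tcf4+/- replicate 3, a choice made after seeing the data, when 29.9% do not. Among the 12 chain shares with a mean of at least 5%, the count that do not overlap, 0 in TPM, was 0 to 4 when 1 library was left out, 2 without Tcf4+/- replicates 2 and 3 and 3 without Col8a2 replicate 2 and Tcf4+/- replicate 3. Fewer libraries make separation more frequent. On the TPM scale the median of all genes moved to -0.15 and -0.18 for a pseudocount of 1 and 0.1.

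Of 34 genes tested, 14 kept the sign of the log2 fold change under all alternatives in which they were fitted. Among them were Itga8, Itgb4, Itga3 and Itga5 under 17 and Lama3 and Itga2 under 16, since neither of the last 2 reached a mean of 5 CPM. Itga2 passed the filter on low counts only through the Tcf4+/- libraries, so its sign could not turn and says nothing of stability. Leaving out 1 library gave log2 fold changes from -0.60 to 0.39 for Lama2, -0.95 to 0.05 for Lama5, -0.92 to 0.16 for Lamb1, -0.59 to 0.05 for Lamb2, -0.49 to 0.11 for Lamc1, -0.54 to 0.19 for Nid2, -0.43 to 0.05 for Hspg2, -0.29 to 0.30 for Agrn, -0.63 to 0.36 for Dag1, -0.63 to 0.23 for Itga11, -0.10 to 0.48 for Itga4, -0.38 to 0.12 for Itgb1 and -0.35 to 0.09 for Itgb5. The lowest was -2.14 for Col18a1, -0.87 for Itga6 and -1.68 for Itgb6, and the highest 5.64 for Itga10. Without Col8a2 replicate 2 and Tcf4+/- replicate 3 the sign turned to 0.15 for Lama5, 0.50 for Lamb1, 0.21 for Lamb2, 0.30 for Lamc1, 0.49 for Nid2, 0.06 for Hspg2, 0.17 for Col18a1, 0.50 for Dag1, 0.02 for Itga6, -0.02 for Itga10, 0.23 for Itga11, 0.30 for Itgb1, 0.24 for Itgb5 and 0.13 for Itgb6, and the value was 0.64 for Lama2 and 0.37 for Agrn. Without Tcf4+/- replicates 2 and 3 it turned to -0.58 for Lama2, -0.17 for Lama4, -0.52 for Agrn, 0.00 for Dag1, -1.27 for Itga10, -0.57 for Itga4, 0.04 for Itgb1 and 0.28 for Itgb6. With the TPM scale at pseudocounts of 1 and 0.1 it turned to -0.20 and -0.23 for Nid1, to -0.18 and -0.18 for Agrn, to 0.05 and 0.05 for Itgb5 and, at 1, to -0.01 for Itga4. The replicate block turned Lama2 to -0.04, and limma voom turned Lamc3 to 1.05. The cause of these turns was not tested.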
